A study of Mus musculus with 24 samples.

Results

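The levels of 7 erythroid genes, Hba-a1, Hbb-b1, Alas2, Slc4a1, Klf1, Gata1 and Epor, were read in 24 RNA libraries from mouse bone marrow endothelium and stroma. The 7 genes were chosen by name, all 7 were found, and they are 7 of the 23879 gene symbols listed for each library. The libraries fall into 8 groups of 3, endothelium and stroma each in 4 settings. All carry the strain label C57BL/6J. In the first setting the cells were kept in culture, and in a co-culture series they were kept alone or together with HSPC (hematopoietic stem and progenitor cells). The titles of these 18 cultured libraries carry the word Akt1, and what was done to Akt1 is not given in the sources used here. The last setting is in vivo, whose 6 titles carry no Akt1. The column headers of the 3 in vivo endothelial files carry the word Young, and no age is given. Nor do the labels say how the cells were isolated or sorted, whether the HSPC were removed before RNA was made, or whether libraries of a group came from separate animals or cultures, so p-values measure only the spread between these libraries.

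Red cells arise from progenitors in the marrow that respond to erythropoietin through its receptor, encoded by Epor. Gata1 and Klf1 encode the transcription factors that switch on the red cell program, Gata1 being shared with megakaryocytes. Alas2 encodes the first enzyme of heme synthesis in red cell precursors, Hba-a1 and Hbb-b1 encode adult alpha and beta globin, and Slc4a1 encodes band 3, the anion exchanger of the red cell membrane. Epor is also known in endothelial cells.

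Values are FPKM, fragments scaled by transcript length and by the mapped fragments of the library, so levels of different genes can be compared. Library totals lay between 1421450 and 1808590 FPKM. The FPKM files hold no counts, and sequencing depth is unknown here. The in vivo libraries carried the markers of their labels: the summed FPKM of 8 endothelial markers was 17357 to 18634 in endothelium and 116 to 139 in stroma, and that of 8 stromal markers was 1606 to 1909 in endothelium and 140896 to 167018 in stroma. Xist stood at 1107 and 1250 FPKM in cultured endothelium 2 and 3 and at 1006 FPKM in cultured stroma 3, and at no more than 2.35 FPKM in the other 3 libraries of those groups.

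Erythroid RNA was highest in the in vivo libraries. In vivo stroma had the highest level of 6 of the 7 genes, in vivo endothelium the next, and the 18 cultured libraries were at or near 0. Slc4a1 was listed at 0 in all 18 cultured libraries. Hba-a1, Hbb-b1 and Gata1 were each listed at 0 in 17 of them, Alas2 in 15 and Klf1 in 14. Epor had another order, with in vivo endothelium highest and values above 0 in 16 of the 18 cultured libraries.

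**Figure D1:**
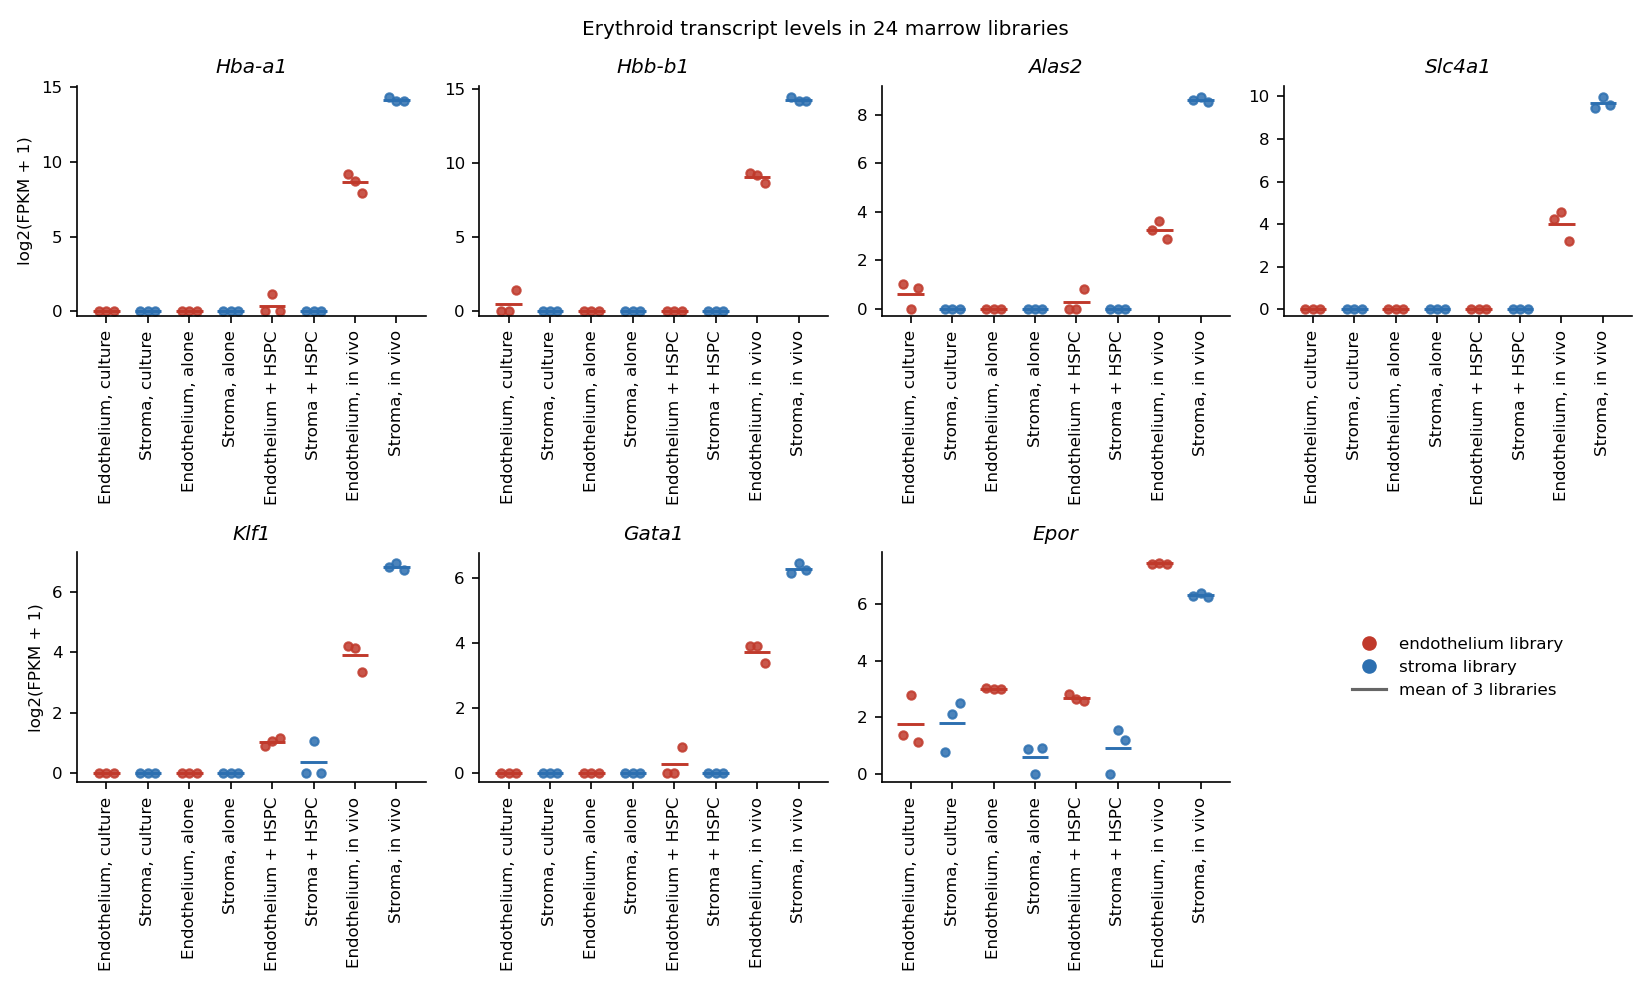
Level of each of the 7 genes, log2(FPKM + 1) on the vertical axis, in the 3 libraries of each of the 8 groups; points are libraries (red for endothelium, blue for stroma) and lines are means of 3. In vivo stroma lies above in vivo endothelium for every gene except Epor, and the cultured libraries lie at or near 0 for every gene except Epor.

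The promoters of these genes are shown because Gata1 and Klf1 encode the factors known to read the motifs marked. RefSeq sequence on GRCm38.p6 was found for 5 of the 7 genes, and Hbb-b1 and Slc4a1 were not matched. The files used mm9, so no value is placed by these coordinates. Each line gives the 250 bases before the annotated start, 5′ to 3′ along the gene. Capitals mark a GATA motif (the letters AGATAA, the form AGATAG, or the forms with T in front, TGATAA on one hand and TGATAG on the other) or a CACCC-type motif (CCNCNCCC), on either strand.
Hba-a1 (chr11:32283422-32283671, plus strand): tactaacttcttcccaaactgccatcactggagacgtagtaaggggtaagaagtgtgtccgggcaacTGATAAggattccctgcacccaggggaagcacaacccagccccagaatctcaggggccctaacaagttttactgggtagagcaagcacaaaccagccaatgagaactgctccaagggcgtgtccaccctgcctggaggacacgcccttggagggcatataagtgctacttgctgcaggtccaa
Alas2 (chrX:150547167-150547416, plus strand): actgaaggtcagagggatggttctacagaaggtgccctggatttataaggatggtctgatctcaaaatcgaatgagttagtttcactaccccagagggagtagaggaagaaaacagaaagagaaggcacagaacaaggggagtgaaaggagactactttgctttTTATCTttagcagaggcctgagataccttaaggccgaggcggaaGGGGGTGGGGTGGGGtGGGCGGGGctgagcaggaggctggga
Klf1 (chr8:84901732-84901981, plus strand): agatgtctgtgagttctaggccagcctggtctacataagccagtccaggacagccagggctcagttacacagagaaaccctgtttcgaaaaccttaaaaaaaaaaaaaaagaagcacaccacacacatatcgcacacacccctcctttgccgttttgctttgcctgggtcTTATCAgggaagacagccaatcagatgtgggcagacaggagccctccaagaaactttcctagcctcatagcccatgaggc
Gata1 (chrX:7967911-7968160, minus strand): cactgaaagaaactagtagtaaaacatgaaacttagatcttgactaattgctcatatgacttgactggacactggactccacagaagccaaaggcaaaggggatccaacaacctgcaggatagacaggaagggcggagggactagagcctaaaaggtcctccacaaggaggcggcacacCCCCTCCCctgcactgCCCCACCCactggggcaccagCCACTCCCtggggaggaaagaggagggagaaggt
Epor (chr9:21963577-21963826, minus strand): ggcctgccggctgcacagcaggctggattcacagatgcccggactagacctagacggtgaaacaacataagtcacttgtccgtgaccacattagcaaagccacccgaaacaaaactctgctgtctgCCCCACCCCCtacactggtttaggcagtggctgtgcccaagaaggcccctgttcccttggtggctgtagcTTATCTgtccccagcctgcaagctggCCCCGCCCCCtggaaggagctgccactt
A GATA match was present in 4 of these 5 promoters, with its first base at -183 in Hba-a1, -86 in Alas2, -80 in Klf1 and -54 in Epor, counted from the start. Of 32536 distinct promoters of the same length, 26.5% held such a match. CCNCNCCC matches, some overlapping one another, numbered 4 in Alas2, 3 in Gata1 and 4 in Epor, against 46.2% of all promoters with at least 1. The bare letters CACCC also occur outside this form, as in the Hba-a1 and Klf1 promoters, and are not marked. The Hba-a1 and Klf1 promoters held a CCAAT match, at -88 and -64, as did 33.8% of all promoters. A match is a description of the letters only.

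Both globins were abundant RNAs of in vivo stroma. Hba-a1 stood at 20804, 17162 and 17050.2 FPKM in the 3 stromal libraries in vivo and at 589, 424 and 239.8 FPKM in the 3 endothelial ones. The groups did not overlap, and among all genes of a library Hba-a1 ranked 6 to 8 in stroma and 379 to 1376 in endothelium. The mean was 43.9 times higher in stroma, and the endothelium minus stroma difference in log2(FPKM + 1) was -5.54 ± 0.26 (SE, n = 3 per group, adjusted p = 4.57e-08, limma). Hbb-b1 gave 22491, 18168 and 18429 FPKM in stroma and 648.5, 588 and 390.3 FPKM in endothelium, 36.3 times higher in stroma. Its groups did not overlap either, with a log2 difference of -5.21 ± 0.35 (adjusted p = 7.42e-07, limma). In these bulk libraries, fewer cells of a type and less RNA per cell cannot be told apart.

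Other adult globin genes showed the same order. Hba-a2, the second alpha gene, had 2277, 1183 and 1002 FPKM in stroma and 120.4, 190.2 and 172 FPKM in endothelium. Hbb-bt, an adult beta gene, had 6622, 5613 and 5638 FPKM against 211, 222 and 147 FPKM, and Hbb-bs, its neighbor, had 562, 709 and 693 FPKM against 19.8, 18 and 0.59 FPKM. The theta-like genes Hbq1b and Hbq1a were between 28.6 and 45.3 FPKM in stroma and listed at 0 in endothelium. Both reached the low-value filter through the in vivo stromal libraries alone, so their calls could go only one way and are not counted. Leaving out Hbq1b and Hbq1a, 6 globin genes were tested, with Hba-a1, Hbb-b1 and the embryonic Hbb-y among them. Of these 6, 5 were lower in endothelium, with a median log2 difference of -5.08. Among all 12925 genes that likewise reached the filter without the cell type where they were higher, 20.3% were lower and 25.3% higher, with a median of 0.08. Of all 14904 genes tested, 24.2% were lower and 25.0% higher. The division of reads between near copies is uncertain: in the reference coding sequences Hba-a1 and Hba-a2 differ at 1 of 429 bases and Hbb-bs and Hbb-bt at 1 of 444, and reads were 51 bases long. Hbb-b1 was not compared with Hbb-bs and Hbb-bt. How reads were divided among these beta rows is unknown, and the rows may not be separate results. The share of alpha globin assigned to Hba-a2 was 17.0% to 41.8% in endothelium and 5.55% to 9.87% in stroma.

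Embryonic globins followed no such order. Hba-x, Hbb-bh1 and Hbb-bh2 were listed at 0 in all 24 libraries. Hbb-y, the embryonic epsilon-type gene, stood at 14.4, 33.4 and 211 FPKM in cultured endothelium, at 10.7 FPKM in in vivo stroma 3, and was listed at 0 in the other 20 libraries. All 3 cultured endothelial libraries were above all 3 in vivo endothelial ones, but Hbb-y reached the low-value filter through the cultured endothelial libraries, so no test of it is given. The library with the highest Hbb-y, cultured endothelium 3, also held 1.76 FPKM of Hbb-b1, 3.79 FPKM of Hbb-bt and 1.13 FPKM of Hbb-bs.

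All globin rows together made up 3.08%, 2.56% and 2.39% of the summed FPKM of the in vivo stromal libraries and 0.104%, 0.0931% and 0.0556% of the endothelial ones. Alpha to beta globin ratios were alike in range, 0.742 to 0.807 in endothelium and 0.729 to 0.778 in stroma, and overlapped. Thus the amount of globin RNA differed between the groups while the alpha to beta ratio did not separate them.

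Alas2 stood at 389, 430.4 and 366 FPKM in in vivo stroma and at 8.59, 11.3 and 6.42 FPKM in in vivo endothelium. The 3 stromal libraries were all higher, by 45.1 times in the mean, with a log2 difference of -5.37 ± 0.27 (adjusted p = 9.17e-08, limma). Alas1, which encodes the same first step in all tissues, went the other way, at 81.8, 80.5 and 88.1 FPKM in endothelium and 31.0, 29.8 and 34.4 FPKM in stroma (log2 difference 1.37 ± 0.18, adjusted p = 9.98e-05). Alas2 was therefore 10.6 to 14.4 times Alas1 in stroma and 0.0728 to 0.140 times Alas1 in endothelium. Of 13 heme and iron genes tested, 11 were lower in endothelium and none was higher, with a median of -1.35, beside 24.2% lower and 25.0% higher among all genes tested. Tfrc, the transferrin receptor that brings iron into the cell, differed by -3.32 ± 0.47 (adjusted p = 1.79e-04), and Slc25a37, the mitochondrial iron importer, by -1.19 ± 0.20 (adjusted p = 5.96e-04).

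Slc4a1 stood at 706, 1014 and 784 FPKM in in vivo stroma and at 17.7, 22.7 and 8.32 FPKM in in vivo endothelium. No endothelial library came near the lowest stromal one, and the mean was 51.4 times higher in stroma, with a log2 difference of -5.68 ± 0.30 (adjusted p = 1.26e-07, limma). All 15 red cell membrane genes tested were lower in endothelium, with a median of -3.53, beside 24.2% of all genes tested. Ermap, an erythroid membrane-associated protein, differed by -3.72 ± 0.26 (adjusted p = 9.80e-07). Epb4.1, protein 4.1, which many cell types use, differed less, by -2.14 ± 0.42 (adjusted p = 0.00165).

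Among the transcription factors, Klf1 stood at 113, 124 and 104 FPKM in in vivo stroma and at 17.7, 16.7 and 9.26 FPKM in in vivo endothelium, 7.83 times higher in stroma. The log2 difference was -2.93 ± 0.22 (adjusted p = 1.98e-06, limma), with no overlap. Gata1 stood at 69.0, 86.2 and 74.3 FPKM in stroma and at 13.9, 13.8 and 9.37 FPKM in endothelium, 6.18 times higher in stroma. Its groups did not overlap, and its log2 difference was -2.55 ± 0.18 (adjusted p = 1.25e-06, limma).

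Among 12 erythroid transcription factors tested, 6 were lower and 2 were higher in endothelium, beside 24.2% and 25.0% of all genes tested. Nfe2, the globin-locus factor of red cells and megakaryocytes, was at 130.0, 182 and 151 FPKM in stroma and 9.63, 11.8 and 8.88 FPKM in endothelium (-3.80 ± 0.33, adjusted p = 4.87e-06). Sox6, a factor of red cell precursors and of cartilage, was at 57.5, 80.1 and 65.9 FPKM in stroma and 2.91, 3.21 and 2.54 FPKM in endothelium (-4.14 ± 0.73, adjusted p = 8.80e-04), and at 18.99 to 19.4 FPKM in stroma alone, where Gata1 and Klf1 were listed at 0. Gata2, the progenitor and endothelial relative of Gata1, was at 228, 203 and 203 FPKM in endothelium and 4.9, 4.5 and 4.3 FPKM in stroma (5.25 ± 0.27, adjusted p = 9.44e-08). The other factor that was higher in endothelium was Tal1, at 93.3, 92.7 and 101 FPKM against 49.3, 60.2 and 53.2 FPKM (0.81 ± 0.13, adjusted p = 5.56e-04). Tal1 was also at 82.0 to 103 FPKM in cultured endothelium, where Gata1 and Klf1 were listed at 0. Myb, a factor of early blood progenitors, overlapped between the groups, at 15.6, 19.1 and 8.49 FPKM in endothelium and 14.9, 18 and 17.5 FPKM in stroma (-0.27 ± 0.32, adjusted p = 0.510). Lmo2 and Ldb1, which bridge these factors on DNA, did not pass the test, with 0.34 ± 0.96 (adjusted p = 0.805) and -0.06 ± 0.11 (adjusted p = 0.696). With only the in vivo groups in the fit the adjusted p of Lmo2 was 0.0297, and over all alternatives it reached 0.918.

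Epor differed from the other 6 genes. In vivo it stood at 172, 174 and 171 FPKM in endothelium and at 76.5, 83.4 and 74.8 FPKM in stroma. The endothelial libraries were all higher and lay close together. The log2 difference was 1.13 ± 0.48 and did not pass the test, at an adjusted p of 0.0723 (limma). That fit takes its spread from the cultured libraries too, where Epor varied within groups, at 1.58, 5.86 and 1.17 FPKM in endothelium and 0.71, 3.31 and 4.69 FPKM in stroma. With only the 2 in vivo groups in the fit the adjusted p was 2.21e-06, with all 8 groups 0.0333, and without the 3 cultured libraries high in Xist 0.0139. Over all alternatives it ran from 2.21e-06 to 0.192, and the difference from 1.01 to 1.18.

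Of 9 genes of erythropoietin signaling that reached the filter without the cell type where they were higher, 4 were lower in endothelium and none was higher, with a median of -0.83, beside 20.3% and 25.3% of all such genes. A member left out of this count is Fam132b, the iron hormone erythroferrone, which reached the filter only through stroma. The targets Socs3, a feedback inhibitor of cytokine receptors, and Pim1, a survival kinase, differed by -1.56 ± 0.34 (adjusted p = 0.00322) and -2.10 ± 0.28 (adjusted p = 1.27e-04). Jak2, the kinase bound to the receptor, gave 0.59 ± 0.26 (adjusted p = 0.0898). With only the in vivo groups its adjusted p was 0.0358, and over all alternatives 0.0141 to 0.281. Bcl2l1, the survival target, gave -0.15 ± 0.31 (adjusted p = 0.725). In vivo endothelium 2 held 100.1 FPKM of Bcl2l1 against 219 and 220.3 FPKM in the other two.

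Of 10 late erythroid genes that reached the filter without the cell type where they were higher, 8 were lower in endothelium and none was higher, with a median of -2.32, beside 20.3% lower among all such genes. Trim58 and Ypel4, which reached it only through stroma, are left out of this count. Car1, the red cell carbonic anhydrase, was at 792, 1049 and 881 FPKM in stroma and 155, 169.6 and 64.4 FPKM in endothelium (-2.91 ± 0.31, adjusted p = 2.25e-05). Car2, a second carbonic anhydrase, was at 1180 to 1453 FPKM in stroma and 325 to 398 FPKM in endothelium without overlap, but did not pass the test (-1.84 ± 1.04, adjusted p = 0.172). With only the in vivo groups its adjusted p was 4.62e-06, and over all alternatives up to 0.366. Bnip3l, another late gene, leaned the other way without overlap. It was at 223, 238 and 250 FPKM in endothelium and 187, 193 and 181 FPKM in stroma, but did not pass the test. With only the in vivo groups the adjusted p of Bnip3l was 0.00253 (limma), and over all alternatives up to 0.637. Trim10 and Trim58, ubiquitin ligases of late red cell precursors picked out after their values were seen, had the 2 highest ratios of stroma to endothelium among the 66 listed genes above 0 in both groups, 72.5 and 111.

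Counted together, 6 of the 7 genes were lower in in vivo endothelium than in in vivo stroma, the exception being Epor, beside 24.2% of all genes tested. With each of the 6 in vivo libraries left out in turn, the count stayed at 6. Ratios of stroma to endothelium in the mean FPKM ranged over the listed genes from a median of 36.3 for 5 globin genes and 13.4 for 15 membrane genes to 3.26 for 12 transcription factors and 2.57 for 13 heme and iron genes. They were 6.99 for 11 late genes and 1.89 for 10 erythropoietin signaling genes.

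**Figure D2:**
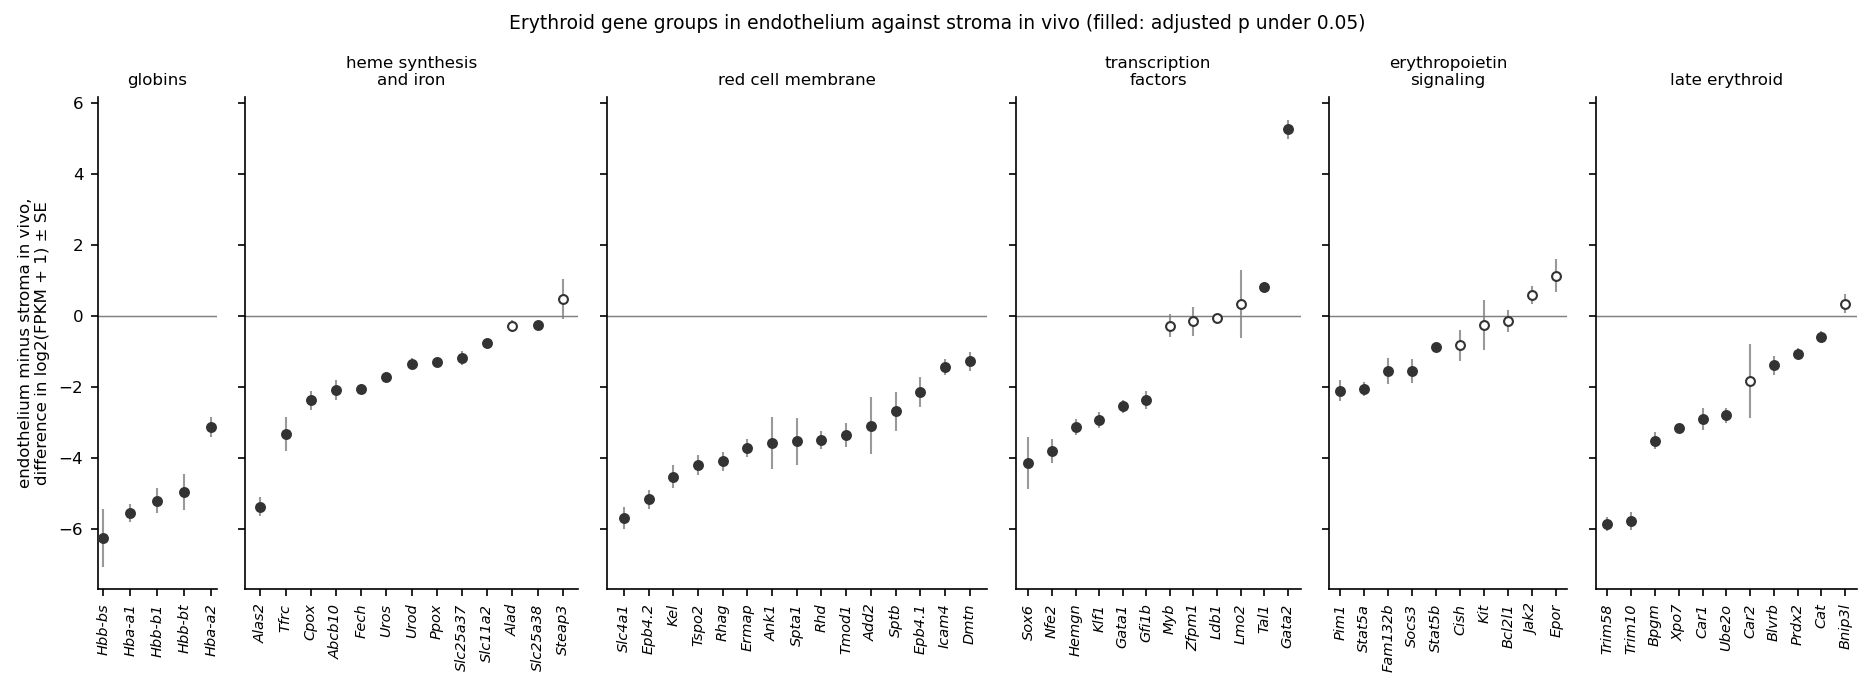
Endothelium minus stroma difference in log2(FPKM + 1) in vivo, with its SE (3 libraries per group), for the 66 listed erythroid genes above 0 in both groups, by list; filled points passed an adjusted p of 0.05. Every membrane gene lies below 0, Epor lies at 1.13 with an open point, and Gata2 lies highest at 5.25.

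Ratios between the erythroid genes within a library set in vivo endothelium and stroma apart as well. These ratios were not tested. Summed globin was 101 to 114 times Gata1 in the 3 endothelial libraries in vivo and 498 to 766 times Gata1 in the 3 stromal ones. Against Klf1 it was 86.3 to 103 times in endothelium and 346 to 467 times in stroma. Both ratios separated the groups without overlap. Slc4a1 was 0.888 to 1.65 times Gata1 in endothelium and 10.2 to 11.8 times in stroma, and Alas2 was 0.616 to 0.816 times Gata1 in endothelium and 4.92 to 5.64 times in stroma. The genes of red cell products were thus higher relative to Gata1 in stroma. Klf1 to Gata1 ratios lay nearer together, at 0.988 to 1.27 and 1.41 to 1.64. Gata1 was 0.723 to 1.10 times Myb in endothelium and 4.24 to 4.80 times in stroma. Globin to Alas2 overlapped, at 128 to 185 in endothelium and 99.7 to 136 in stroma, as did Gfi1b to Gata1, at 0.604 to 1.01 and 0.648 to 0.676.

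**Figure D3:**
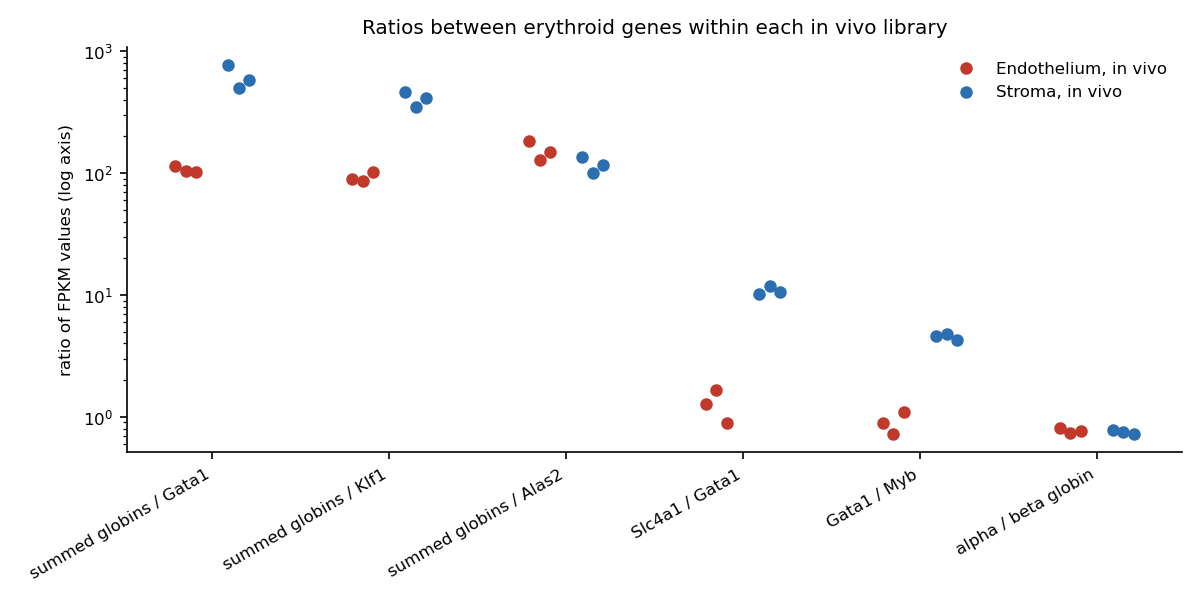
Ratios of FPKM between erythroid genes (log axis) in each of the 3 endothelial and 3 stromal in vivo libraries; each point is 1 library. Ratios to Gata1 and Klf1 separate the groups, at 101 to 114 against 498 to 766 for globin over Gata1, whereas globin over Alas2 and alpha over beta globin overlap.

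Markers of other blood cells did not follow one order between these groups. Summed neutrophil markers (7 genes, none at 0 in either group) were 211 to 280.2 FPKM in in vivo endothelium and 1525 to 3309 FPKM in in vivo stroma. Of these markers Mpo and Elane, genes of granulocyte precursors, went the other way: Mpo was at 86.9, 156 and 70.6 FPKM in endothelium and 33.1, 15.2 and 30.2 FPKM in stroma, and Elane at 50.8, 106 and 42.0 FPKM and at 21.0, 7.15 and 16.8 FPKM. Summed pan-leukocyte markers (6 genes, none at 0) were 42.8 to 64.3 FPKM and 73.0 to 104 FPKM. Of the 6, 3 were lower in endothelium and none was higher, beside 24.2% and 25.0% of all genes tested. Laptm5 leaned the other way, at 19.6, 20.2 and 13.0 FPKM in endothelium and 15.1, 7.61 and 11.6 FPKM in stroma. Megakaryocyte markers (9 genes, none at 0), which matter for Gata1, Gfi1b and Nfe2, overlapped, at 204 to 583.5 FPKM in endothelium and 43.5 to 248 FPKM in stroma. Of the 7 that reached the filter without the cell type where they were higher, 3 were higher in endothelium and none was lower. Among all such genes, 25.3% were higher and 20.3% lower. The 3 were Pf4, Itga2b and Tubb1, and the median log2 difference of the 7 was 1.58. Gp1bb leaned the other way, at 4.39, 2.81 and 9.69 FPKM in endothelium and 8.31, 8.10 and 17.23 FPKM in stroma. Mast cell and basophil markers overlapped at 45.0 to 98.7 and 47.7 to 112 FPKM, with 2 of 8 at 0 in both groups, Tpsb2 and Cma1. Their part in the results for Gata1 and the other shared genes was not tested.

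The 3 endothelial libraries in vivo were not alike. Library 3 had the lowest level of all 7 genes, for Epor by a small margin. Over all the erythroid lists it was lowest for 36 of the 65 genes above 0 in the 3 libraries, beside 24.5% of all 13429 such genes. By list the count ran from 13 of 15 membrane genes, 4 of 5 globins and 8 of 12 transcription factors to 6 of 13 heme and iron genes, 4 of 11 late genes and 1 of 9 erythropoietin signaling genes. As a percentage of the stromal mean, Hba-a1 was 3.21%, 2.31% and 1.31% in libraries 1 to 3, Slc4a1 was 2.12%, 2.73% and 0.997%, and Gata1 was 18.2%, 18% and 12.2%. The erythroid lists thus did not all have their low point in library 3, and Hba-a2 was lowest in library 1. Markers of other cells went both ways in library 3. Col1a1, the main collagen of stroma, was 0.103%, 0.0923% and 0.257% of the stromal mean, and S100a8, a neutrophil gene, was 2.93%, 1.49% and 7.70%. Every pan-leukocyte marker was lowest in library 3, such as Ptprc at 2.79, 3.85 and 1.18 FPKM and Rac2 at 7.30, 11.4 and 4.04 FPKM. Mpo was lowest there too, at 86.9, 156 and 70.6 FPKM. Without library 3 the stroma to endothelium ratio of Hba-a1 was 36.2.

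Compared with culture, all 7 genes were higher in vivo in endothelium, where 53.3% of all genes tested were called in either direction, and all 7 in stroma, where 55.4% were. For every gene but Epor the low-value filter was passed through the in vivo libraries alone. These genes could hardly be called lower in vivo, so nothing is read from these counts. Under trimmed-mean scaling the share of calls that were higher in vivo, over all genes, moved from 44.2% to 54.5% in endothelium and from 43.3% to 57.2% in stroma, where the median difference of all genes moved from -0.15 to 0.06. Epor, present on both sides, was higher in vivo by 5.68 ± 0.48 in endothelium (adjusted p = 6.65e-06, limma) and by 4.51 ± 0.48 in stroma (adjusted p = 2.54e-05). Its mean FPKM was 2.87 in cultured and 173 in in vivo endothelium, and 2.90 in cultured and 78.2 in in vivo stroma.

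The libraries with HSPC held myeloid but hardly any erythroid RNA. The granule genes Mpo and Elane, made by granulocyte precursors, were listed at 0 in all 6 libraries kept alone. With HSPC, Mpo was at 170, 236 and 178 FPKM on endothelium and 62.1, 63.0 and 61.0 FPKM on stroma. Summed neutrophil markers were 48.1 to 54.8 FPKM in endothelium alone, all of it from Ltf, and 0 in stroma alone. With HSPC the sum reached 1406 to 1598 FPKM on endothelium and 595 to 792 FPKM on stroma. In vivo it was 211 to 280.2 FPKM in endothelium and 1525 to 3309 FPKM in stroma. Ltf itself went the other way on endothelium, at 54.8, 48.1 and 52.3 FPKM alone and 41.1, 30.3 and 33.0 FPKM with HSPC. The libraries with HSPC held next to no globin: Hba-a1 was 0, 1.19 and 0 FPKM on endothelium and 0 in all 3 on stroma. Hbb-b1 and Slc4a1 were listed at 0 in all 6, Alas2 reached 0.73 FPKM and Gata1 0.71 FPKM in endothelium with HSPC 3, and both were at 0 in the other 5.

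Apart from Epor, Klf1 was the only one of the 7 genes detected in all 3 libraries of endothelium with HSPC, at 0.85, 1.09 and 1.25 FPKM. On stroma with HSPC it was 0, 1.10 and 0 FPKM, and it was listed at 0 in the 6 libraries kept alone. All 3 endothelial libraries with HSPC were above those alone, and the difference was 1.04 ± 0.24 (adjusted p = 0.00350, limma). On stroma it was 0.36 ± 0.24 (adjusted p = 0.213), and the difference between the 2 effects was 0.68 ± 0.33 (adjusted p = 0.101). Klf1 passed the low-value filter only through libraries with HSPC, so it could be called only higher with them, and without endothelium with HSPC 2 or 3 it did not pass. Gfi1b, a factor of red cell and megakaryocyte precursors, showed 0, 1.28 and 1.09 FPKM on endothelium and 0 on stroma.

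Factors shared with other blood progenitors stood higher. Myb was 12.3, 16.8 and 11.5 FPKM on endothelium with HSPC and 2.87, 2.36 and 2.88 FPKM on stroma with HSPC, and listed at 0 in all 6 libraries alone. The endothelial values lay within the range of in vivo endothelium, 8.49 to 19.1 FPKM. Nfe2 was 7.40, 14.9 and 8.72 FPKM on endothelium and 2.99, 2.47 and 2.27 FPKM on stroma, again from 0 in the libraries alone. The increase of log2(FPKM + 1) was larger on endothelium for both, by 1.96 ± 0.18 for Myb (adjusted p = 4.29e-06, limma) and 1.61 ± 0.27 for Nfe2 (adjusted p = 3.73e-04). Both genes reached the low-value filter only through libraries with HSPC. With the 6 libraries alone all at 0, each difference is only that between the groups with HSPC. The libraries alone add no spread to the fit, so these SE and p-values may be too small, and nothing is read from them. Summed pan-leukocyte markers were 90.8 to 124 FPKM on endothelium and 19.0 to 28.5 FPKM on stroma, and their part in these differences was not tested.

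**Figure D4:**
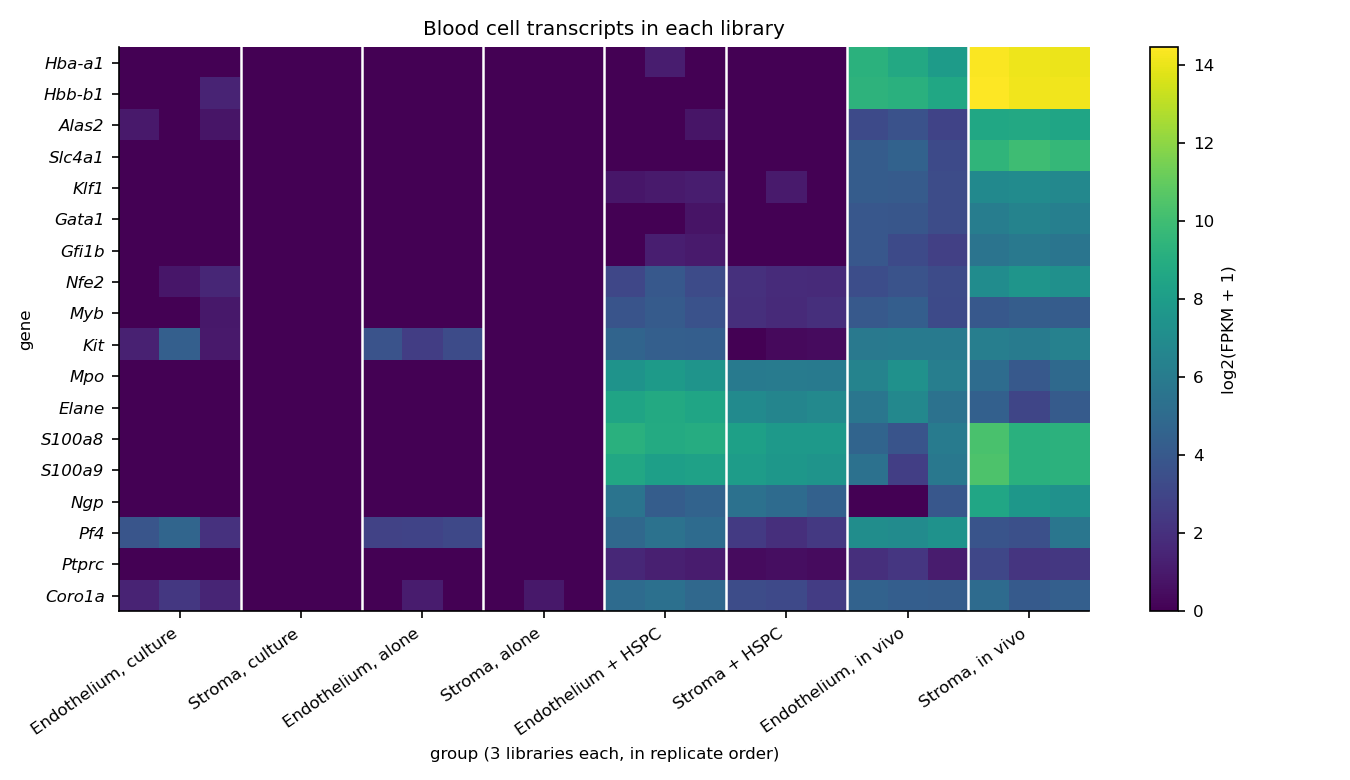
Level, log2(FPKM + 1) by color, of 18 erythroid, progenitor, neutrophil, megakaryocyte and pan-leukocyte genes (rows) in each of the 24 libraries (columns, grouped by 3 in replicate order). The libraries with HSPC are bright for Mpo, Elane, S100a8 and S100a9 and dark for the globins, while in vivo stroma is bright for the globins.

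In the co-culture series Epor was higher in all 6 endothelial libraries than in any of the 6 stromal ones. Endothelium alone held 7.10, 7.01 and 7.04 FPKM and endothelium with HSPC 6.00, 5.29 and 4.98 FPKM. Stroma alone held 0.82, 0 and 0.90 FPKM and stroma with HSPC 0, 1.93 and 1.31 FPKM. The endothelial libraries with HSPC were all lower than those alone, but the difference of -0.33 ± 0.34 did not pass the test (adjusted p = 0.476, limma). With only these 2 groups in the fit the adjusted p was 0.0130, the lowest over the alternatives, and the highest was 0.847. On stroma the difference was 0.32 ± 0.34 (adjusted p = 0.447) and the groups overlapped. Without stroma with HSPC 1, where Epor is listed at 0, it was 0.78 with an adjusted p of 0.0156, and without stroma with HSPC 2 the difference was 0.0073. The difference between the 2 effects, -0.65 ± 0.49 (adjusted p = 0.277), became -1.11 (adjusted p = 0.0129) without stroma with HSPC 1, and its adjusted p over all alternatives reached 0.638.

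In the co-culture fit, 2 of the 7 genes could be tested, Klf1 and Epor. With HSPC, Klf1 was higher on endothelium, from which nothing is read given its filter, beside 28.3% of all 14017 genes tested. None was lower, beside 20.3%. Over all genes, 58.2% of the calls on endothelium were higher, and 45.5% under quantile normalization. On stroma neither was called, beside 61.0% of all genes, with unadjusted p of 0.157 for Klf1 and 0.369 for Epor (limma). Nor was either called for the difference of effects, beside 57.0% of all genes, with unadjusted p of 0.0643 and 0.208. No globin gene passed the filter in that fit. Klf1, Nfe2 and Myb, and Ank1 of the membrane list, reached the filter only through libraries with HSPC and are left out of the counts that follow. Among all genes that reached it without the condition where they were higher, 27.7% were higher and 20.7% lower on endothelium, and 25.2% and 36.0% on stroma, where over all genes tested 25.6% and 35.4% were. The transcription factor list gave 1 higher (Tal1) and 3 lower of 6 on endothelium and 3 higher (Lmo2, Zfpm1 and Sox6) and 1 lower on stroma. Heme and iron genes gave 5 higher and 2 lower of 12 on endothelium and 4 higher and 5 lower on stroma. Red cell membrane genes gave 2 higher and 1 lower of 6 on endothelium and 1 higher and 2 lower on stroma.

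Across the 8 groups, the order of levels was the same for 6 of the genes at the top: in vivo stroma, then in vivo endothelium, then the cultured groups, with no overlap between these 3 steps. Among the cultured groups each neighbor in the order overlapped the next for all 6. For Epor the order ran from in vivo endothelium (173 FPKM) to in vivo stroma (78.2), endothelium alone (7.05) and endothelium with HSPC (5.42). These did not overlap one another, but endothelium with HSPC (4.98 to 6.00 FPKM) overlapped cultured endothelium (1.17 to 5.86 FPKM). The remaining groups, cultured stroma (2.90), cultured endothelium (2.87), stroma with HSPC (1.08) and stroma alone (0.573), each overlapped the next.

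Over the 24 libraries, log2(FPKM + 1) of the 6 erythroid genes other than Epor gave Pearson r between 0.968 and 0.997 with one another, and between 0.751 and 0.858 with Epor. These values are descriptions over libraries that share group and scaling, and most of the points are cultured libraries at or near 0. Among 13023 genes with a group mean of at least 5 FPKM, the closest to Hba-a1 were Ctse (r = 0.998), Hbb-b1 (0.997), Gata1 (0.996), Cited4 (0.996) and Hemgn (0.996). Closest to Gata1 was Hemgn, a factor of blood precursors (r = 0.999), followed by Ctse (0.997) and Ermap (0.996). Closest to Klf1 was Gfi1b (r = 0.992), with Ermap (0.991), Satb1 (0.991), Hemgn (0.990) and Gata1 (0.990) after it. Closest to Hbb-b1 were Hba-a1 (r = 0.997), Hbb-bt (0.996), Ctse (0.996), Car1 (0.996) and Cpne7 (0.995). The genes nearest to Epor were others, Tmc8 (r = 0.958), Slc25a25 (0.954), Rasd1 (0.95), Slco2b1 (0.949) and Tgtp1 (0.947), none of them on an erythroid list.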

How the data were processed

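Poly(A) RNA from 24 libraries (8 groups of 3) was sequenced as paired reads of 51 bases, per the labels' protocols. TopHat and Cufflinks with mm9 are named in the submitters' processing notes, without versions. The authors deposited FPKM values per gene symbol, used here without rescaling. Log2(FPKM + 1) was tested with limma 3.58.1 (R 4.3.3; empirical Bayes with trend, two-sided, Benjamini-Hochberg over all genes tested, threshold 0.05), checked on simulated data. In that simulation only genes well above 0 were changed, so it does not cover genes at or near 0. A gene was tested where 3 or more of the 12 libraries of a fit reached 1 FPKM. There were 2 fits, culture with in vivo and the co-culture series, for 6 comparisons. A group mean is given with its 3 values. Globin shares are percentages of summed FPKM. The 7 genes and the gene lists were chosen with earlier results of these data known, and 2 list genes are not reported here. Beside the 7, globins, the 4 most abundant genes per list, Alas1, Gata2 and genes of the most similar pattern (Pearson) were named. Other list genes, such as Tal1, Myb, Sox6, Trim10 and marker genes, were picked after their values were seen. Alternatives covered pseudocount, filter, scaling, groups in the fit, replicate block and single libraries.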

Additional observations from a re-analysis of the deposited data

Results flagged for a closer look

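The effect of HSPC differed between endothelium and stroma, by the test of the difference itself (limma, adjusted over all genes, where 57.0% of genes passed), for 13 of the 17 named genes that could be tested. Each value is the effect on endothelium minus the effect on stroma in log2(FPKM + 1), followed by both effects. Nfe2 rose more on endothelium (1.61, from 3.45 and 1.83), as did Alas1 (0.24, from 0.40 and 0.17). Nfe2, among the 13, and Klf1, among the 17, reached the low-value filter only through libraries with HSPC. Both were listed at 0 in the libraries alone, so nothing is read from their part in the count. The 57.0% is over all genes tested and includes such genes. Prdx2 (1.03, from 0.48 and -0.55) and Epb4.1 (0.44, from 0.24 and -0.20) rose on endothelium and fell on stroma. Ldb1 fell on stroma, by 0.51 on the log2 scale, with -0.01 on endothelium, a difference of 0.51. Tfrc (-1.01, from 0.26 and 1.27) and Bnip3l (-0.79, from 1.34 and 2.13) rose more on stroma. Car2 (-1.34, from 0.38 and 1.71), Socs3 (-2.70, from -0.29 and 2.41), Jak2 (-0.89, from -0.16 and 0.72), Slc25a37 (-0.77, from -0.44 and 0.33) and Lmo2 (-2.83, from -0.99 and 1.84) had a higher effect on stroma. The level of Lmo2 stayed low on stroma, at 0 alone and 2.05, 3.22 and 2.56 FPKM with HSPC. On endothelium Lmo2 was at 443, 406 and 389 FPKM alone and 214, 200 and 206 FPKM with HSPC. Bcl2l1 fell more on endothelium (-0.70, from -0.93 and -0.23). With all 8 groups in the fit, 7 of the 13 differences lost their call, those of Tfrc (adjusted p = 0.202), Epb4.1 (0.601), Lmo2 (0.0696), Bcl2l1 (0.169), Car2 (0.502), Bnip3l (0.0699) and Alas1 (0.449). Klf1 and Epor, the 2 genes of the 7 that could be tested, were not among the 13.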

How the results depend on the processing

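Of 397 values of the 7 genes under alternatives, 390 kept their direction and side of the threshold, and the other 7 passed it. The count of the 7 genes called was within 1.5 times the main count in 86 of 92 alternatives. On endothelium with HSPC against alone it was 0 with a minimum of 5 FPKM, and 0 to 1 with each library left out, since Klf1 then failed the filter. On stroma it was 0 to 1 with each library left out. For the difference of effects it was 1 under quantile normalization (Klf1) and 0 to 1 with each library left out. The globin share of in vivo stroma was 3.16% without the 10 highest other genes, against 2.68%. With all 8 groups in the fit, all genes called numbered 1852 against 6813 (HSPC on endothelium), 3591 against 8551 (on stroma) and 2276 against 7996 (difference of effects). Signs turned, in values past no threshold, for Bcl2l1 in vivo (-0.34 to 0.23 with each library left out, above 0 without in vivo endothelium 2), Ldb1 with HSPC on endothelium (-0.0595 to 0.0204, above 0 without endothelium with HSPC 2 or 3 or endothelium alone 2) and Gata2 (-0.00365, difference of effects, quantile normalization). The causes were not tested. With the replicate number as a block, the in vivo count stayed at 6 of 7 and 7014 genes were called against 7343; Tfrc with HSPC on endothelium lost its call (adjusted p = 0.0536). Same-numbered libraries did not pair, with correlations of deviations between -0.119 and 0.162. Ranked by Spearman rho, 0 to 3 of each 5 most similar genes were shared. The FPKM values limit what a 0 means, since depth is unknown.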

Other observations

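Macrophages feed iron to red cell precursors in the marrow, and 8 of their markers were read beside the erythroid genes. In vivo their levels did not follow one order. Siglec1 was at 0.82, 0.56 and 0.99 FPKM in endothelium and 0.46, 0.70 and 0.50 FPKM in stroma, and Spic was above 0 in a single library, at 1.58 FPKM. Cd163, a receptor for hemoglobin bound to haptoglobin, was at 0, 0.37 and 0.38 FPKM in endothelium and 1.33, 2.36 and 2.99 FPKM in stroma. Mertk, a receptor for dying cells, was at 109, 109.6 and 128 FPKM in endothelium and 65.3, 75.1 and 67.8 FPKM in stroma, and Cd68 at 20.5, 39.8 and 50.6 FPKM and at 16.2, 24.4 and 15.7 FPKM. Slc40a1, the iron exporter ferroportin, was at 61.3, 83.6 and 88.8 FPKM in in vivo endothelium and 283, 307 and 266 FPKM in in vivo stroma. It was also high in stroma alone, at 648, 619 and 625 FPKM, where the 6 genes other than Epor were listed at 0.

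Genes of basophils and mast cells, whose precursors share Gata1 and Gata2 with red cells, were read in the cultured libraries. Mcpt8, a basophil protease, was at 24.9, 32 and 36.6 FPKM on endothelium with HSPC and 9.70, 10.3 and 10.5 FPKM on stroma with HSPC. It was also at 176, 8.45 and 10.3 FPKM in cultured stroma, to which the labels add no HSPC, and at 0, 1.70 and 1.60 FPKM in endothelium alone. Cpa3, a mast cell protease, was at 7.32, 10.4 and 9.49 FPKM on endothelium with HSPC and at 2.10, 1.07 and 2.11 FPKM on stroma with HSPC, and at 3.59 FPKM in cultured endothelium 2 and 3.06 FPKM in cultured stroma 3. The other markers of this list varied. Fcer1a, Tpsb2 and Cma1 were listed at 0 in all 18 cultured libraries. Ms4a2 was at 1.11, 1.64 and 1.76 FPKM on endothelium with HSPC and at 0 on stroma with HSPC. Prss34 was at 9.34, 7.82 and 8.69 FPKM and at 2.65, 3.31 and 3.82 FPKM. Hdc was at 8.95, 8.47 and 8.88 FPKM in endothelium alone already, and at 21.8, 20.0 and 20.7 FPKM with HSPC. Gata1 was at 0 in 5 of the 6 libraries with HSPC.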
